A study of Mus musculus with 12 samples.

Results

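Simple epithelia line ducts, gut and the earliest sheets of the embryo, and they are recognised by 2 sets of genes. One set builds the keratin filament: each filament pairs a type II keratin (Krt7, Krt8) with a type I keratin (Krt18, Krt19). The other set builds the tight junction, where claudins, small membrane proteins with several membrane spans, seal the gap between neighbouring cells or let chosen ions through. Krt8 and Krt18 are the first keratins of the mouse embryo, and Cldn6 is a claudin of embryonic rather than adult epithelium. The 9 genes described here are these 4 keratins and Cldn3, Cldn4, Cldn5, Cldn6 and Cldn7. They were taken by gene name from the assembled transcripts, each name had 1 locus, and they are 9 of 80012 counted loci, of which 17922 were tested. All 9 were tested.

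RNA was read from C57BL/6 mouse embryonic stem cells (ESC, day 0) and from embryoid bodies at day 3 of hanging-drop differentiation, sorted into cells with EGFP (Eo+) and without it (Eo-). All 12 libraries came from 1 stem cell line, in which EGFP was inserted at the start of Eomes, a T-box gene of the mesendoderm, the common source of mesoderm and endoderm. Each group held 4 libraries, numbered 1, 2, 5 and 6 after their differentiation sets. The ESC grew on mouse embryonic fibroblast feeders and differentiation began from such cultures, so RNA of another cell type could be present, and in bulk RNA fewer cells of a type and less RNA per cell cannot be told apart.

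The libraries held 648413022 to 837308168 counts, so that 3 counts, taken as the detection floor, were worth 0.003542 to 0.00467 CPM (counts scaled to one library total, with TMM factors that make libraries comparable). Eomes was at 46.4 ± 8.82 CPM in ESC, 137 ± 22.2 in Eo- and 527 ± 96.9 in Eo+ (SD, n = 4), in the order of the labels. The ESC marker list (Pou5f1, Nanog, Zfp42, Esrrb, Klf4) summed to 2415 to 3260 CPM in ESC and to 434.7 to 759.7 in Eo+, and the mesendoderm list (Eomes, T, Mixl1, Mesp1, Gsc, Lhx1) to 92.1 to 288 and 1716 to 2969 CPM. Markers of an established surface epithelium were scarce, with a list sum of at most 1.40 CPM in any library. Levels below are CPM, and FPKM, which also divides by exon length, is used wherever genes are compared with each other.

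Krt8, Krt18 and the far scarcer Krt7 were called higher in Eo+ cells than in ESC and Eo- cells, Krt18 not securely against Eo-. Krt19 did not pass the test in any comparison. The claudins split. Cldn6 and Cldn7 were several-fold higher in both day 3 fractions than in ESC, Cldn4 was lower in both, and Cldn3 and Cldn5 were higher in Eo- alone, with Cldn5 in Eo+ below the ESC level. Of the 9 genes, 5 were higher and 2 lower in Eo+ than in ESC, where 35.8% and 36.1% of all tested loci were called in those directions. In Eo- against ESC 4 were higher and 1 lower, beside 30.9% and 31.3% of all loci, and in Eo+ against Eo- 3 were higher and 4 lower, beside 23.0% and 24.6%. With so many loci changed, these counts alone do not set the 9 genes apart. Their median log2 fold changes were 1.52, 0.70 and -0.10 in the 3 comparisons, beside 0.00, 0.02 and -0.01 over all tested loci.

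**Figure D1:**
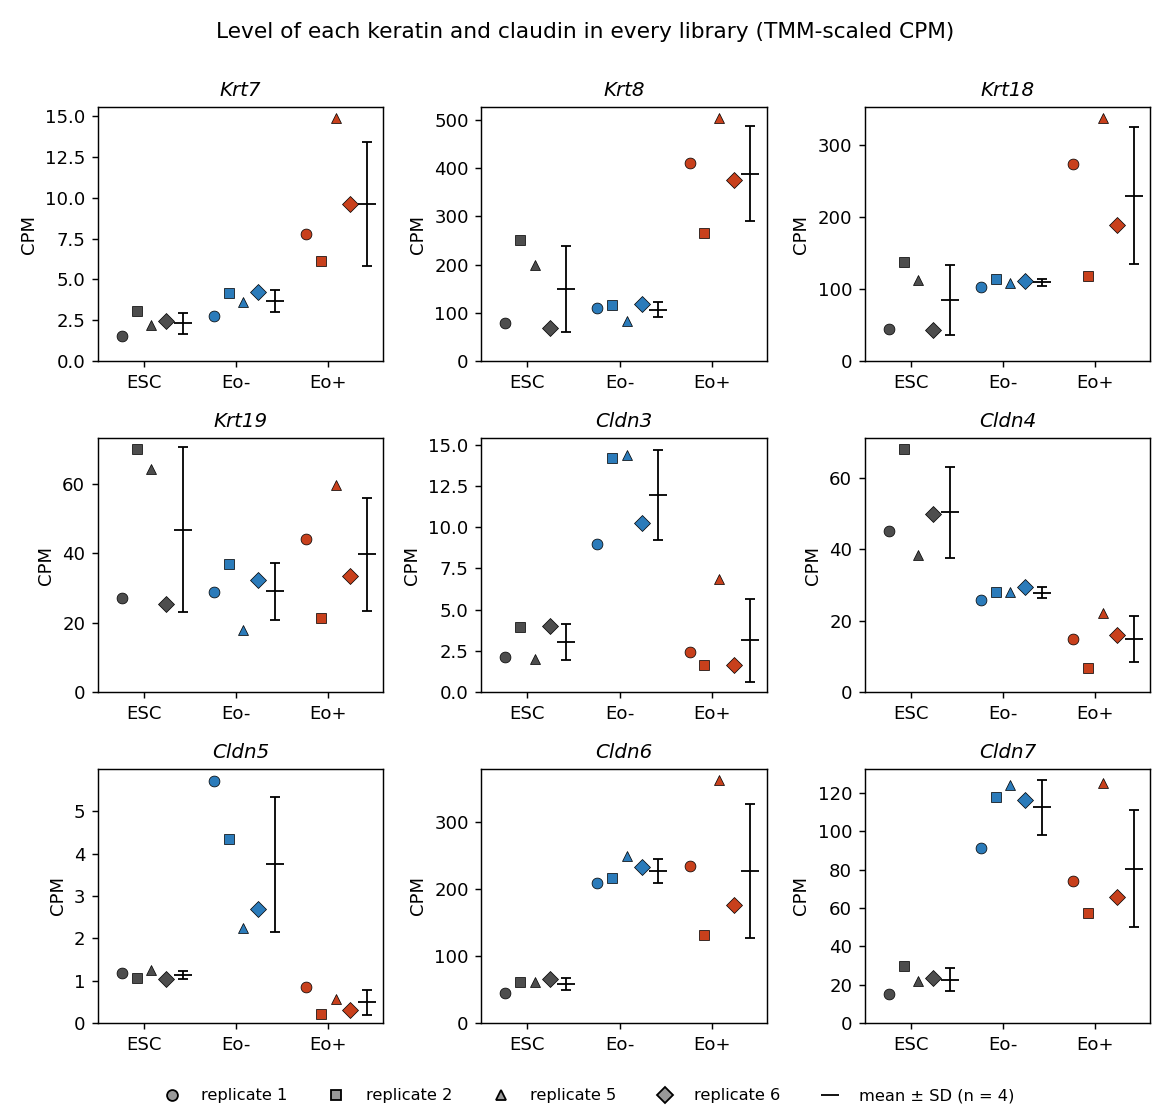
Level of each of the 9 genes in TMM-scaled CPM (linear axes from 0), by group; each point is 1 library, its shape gives the differentiation set, and the bar to its right is the mean ± SD of 4 libraries. Krt7 and Krt8 in Eo+ lie above every other library, Cldn3 and Cldn5 peak in Eo-, and replicate 2 is the lowest Eo+ library for all 9 genes.

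Krt8, the type II keratin of nearly every simple epithelium, was at 79.9, 251, 199 and 69.9 CPM in ESC replicates 1, 2, 5 and 6, at 109.9, 116, 83.6 and 119 in Eo-, and at 409.9, 265, 503 and 375 in Eo+. Every Eo+ library was above every ESC and Eo- library, and the Eo- values fell between the 2 pairs of ESC values. The level was 2.92-fold higher in Eo+ than in ESC (log2 1.54 ± 0.34 SE, limma-voom adjusted p = 0.0009451) and 3.56-fold higher than in Eo- (log2 1.83 ± 0.34, adjusted p = 0.0006218). Eo- was not called against ESC (log2 -0.29, 95% interval -1.05 to 0.47, adjusted p = 0.494).

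Krt18, its type I partner in the filament, was at 44.3, 138, 113 and 44.1 CPM in ESC, 103, 114, 109 and 112 in Eo-, and 274, 119, 338 and 189.6 in Eo+. The Eo- libraries were nearly equal, the ESC libraries split into 2 high and 2 low, and Eo+ replicate 2 lay below ESC replicate 2, so that Eo+ and ESC overlapped. Eo+ was 2.87-fold above ESC (log2 1.52 ± 0.37, adjusted p = 0.001985) and 1.95-fold above Eo- (log2 0.96 ± 0.36, adjusted p = 0.03854), where the groups did not overlap. The second difference was not secure: it lost its call when any 1 Eo- library or Eo+ replicate 1, 5 or 6 was left out (adjusted p up to 0.1019). Eo- was not called against ESC (log2 0.55, 95% interval -0.25 to 1.36, adjusted p = 0.2133).

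Krt8 and Krt18 lie side by side on chromosome 15 in mm10, with their assembled loci 20.5 kb apart and pointing away from each other: Krt8 at chr15:101996709-102005866 on the minus strand and Krt18 at chr15:102026364-102032077 on the plus strand. Both assembled loci reached upstream of the annotated gene, and their summed exons of 3333 and 2721 bases compare with 1958 and 1437 bases in GENCODE M21. Both genes are also known for many processed pseudogenes, and reads that mapped to several places (22.39 to 26.17% of the counter's total, depending on the library) were not counted, so their absolute levels are uncertain.

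Krt7, a type II keratin of ducts and of the trophoblast, was scarce: 1.54, 3.06, 2.2 and 2.47 CPM in ESC, 2.79, 4.15, 3.62 and 4.23 in Eo-, and 7.75, 6.12, 14.8 and 9.62 in Eo+. All 4 Eo+ libraries were above the other 8. The level in Eo+ was 4.02-fold that in ESC (log2 2.01 ± 0.29, adjusted p = 2.365e-05) and 2.47-fold that in Eo- (log2 1.31 ± 0.27, adjusted p = 0.0012). Between Eo- and ESC the groups overlapped and the gene was just short of a call (log2 0.70 ± 0.31, 95% interval 0.03 to 1.37, adjusted p = 0.06459). It was called with edgeR (adjusted p = 0.04328), DESeq2 (0.03259), library totals (0.04586), no filter on low values (0.04779), the replicate block over all libraries (0.04281) and a fit of the 2 groups alone (0.01506). Krt7 spans chr15:101410927-101430313 on the plus strand, 566 kb from Krt8.

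Krt19, the smallest type I keratin, was at 27.1, 70.05, 64.3 and 25.4 CPM in ESC, 28.8, 37.0, 17.9 and 32.3 in Eo-, and 44.2, 21.2, 59.7 and 33.3 in Eo+. Its 3 groups overlapped, and it was the only keratin of the 4 with no call in any comparison. The intervals still allow sizeable changes: log2 -0.99 to 0.61 for Eo+ against ESC, -1.40 to 0.23 for Eo- against ESC and -0.44 to 1.22 for Eo+ against Eo-. It lies apart from the other 3, at chr11:100140788-100148665 on the minus strand.

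The 3 abundant keratins shared a split among the ESC libraries. Replicates 2 and 5 were above replicates 1 and 6 by a factor of 3.01 for Krt8, 2.85 for Krt18 and 2.56 for Krt19 (ratio of the 2 means), but only by 1.31 for Krt7 and by 0.974 to 1.35 for the 5 claudins. The feeder fibroblast list summed to 229.8, 109.7, 183 and 91.9 CPM in ESC replicates 1, 2, 5 and 6, highest in replicate 1, where the keratins were low. The trophectoderm list, another epithelium with Krt8 and Krt18, summed to 82.0, 79.4, 72.2 and 65.2 CPM in those libraries, with replicate 1 again highest. The mesendoderm list summed to 157.5, 167, 288 and 92.1 CPM, with replicates 2 and 5 the 2 highest as for the keratins, and Dsp (desmoplakin) was also higher in those 2. The part of these cells in the split was not tested. Without ESC replicate 2 or any other single library, Krt8, Krt18 and Krt7 stayed called higher in Eo+ than in ESC.

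The make-up of the RNA of these 4 keratins differed between the groups. Per length, the 4 keratins summed to 101 ± 57.1 FPKM in ESC, 88.3 ± 9.81 in Eo- and 223 ± 73.4 in Eo+ (SD, n = 4). The ESC (51.0 to 164) and Eo+ (135 to 309) libraries overlapped, and the sum was not tested. Krt8 gave 43.7% ± 2.01 of that sum in ESC, 36.3% ± 2.2 in Eo- and 53.3% ± 4.82 in Eo+. Krt18 was the largest share in Eo-, at 46.0% ± 4.92, against 30.8% ± 0.862 in ESC and 36.9% ± 4.09 in Eo+. Krt19 made up 25.1% ± 1.71 of the sum in ESC, 17.2% ± 3.24 in Eo- and 9.21% ± 0.844 in Eo+, a smaller share of a larger sum in the last, and Krt7 stayed under 1% of the sum in each library, with 0.680% as its highest share. The sizes of these shares depend on the lengths used. With exon lengths of GENCODE M21, an alternative added after seeing the data, the mean share of Krt19 was 16.1% in ESC, 10.5% in Eo- and 5.48% in Eo+, and that of Krt7 was 0.25%, 0.357% and 0.358%. Krt8 then gave 46.9%, 37.0% and 53.2%, and Krt18 36.8%, 52.1% and 41.0%, with the same order of the groups for both.

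Since filaments pair the 2 types, the ratio of type II (Krt7 and Krt8) to type I (Krt18 and Krt19) RNA was taken in each library. It was 0.789, 0.861, 0.792 and 0.718 in ESC, 0.627, 0.572, 0.516 and 0.625 in Eo-, and 1.00, 1.46, 0.983 and 1.30 in Eo+. For these 4 genes the 3 groups did not overlap, with Eo- lowest and Eo+ highest. Krt42 and Krt17, also type I, were left out. They were at 12.4 and 8.6 FPKM in ESC but 0.42 and 0.66 in Eo-, so the place of ESC against Eo- depends on that choice. The mean ratio was 0.79 ± 0.0585 in ESC, 0.585 ± 0.0526 in Eo- and 1.19 ± 0.235 in Eo+, a mean log2 difference of 1.00 between the fractions, and it is given without a test because it is a score over genes chosen with earlier results known. With exon lengths of GENCODE M21 in place of the assembled loci the differences were 0.37 for Eo+ against ESC, -0.58 for Eo- against ESC and 0.95 between the fractions, against 0.57, -0.43 and 1.00.

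**Figure D2:**
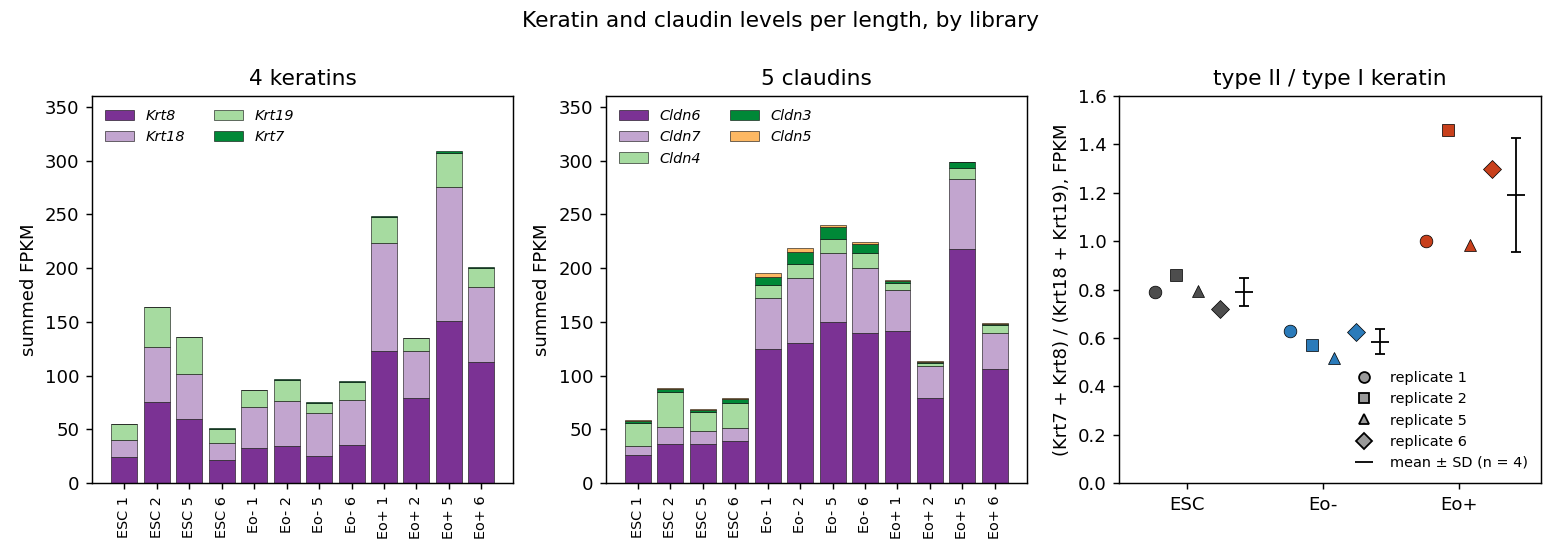
Summed FPKM of the 4 keratins (left) and the 5 claudins (middle) in each library, stacked by gene on linear axes from 0, and the ratio of type II to type I keratin FPKM (right; 1 point per library, bars are mean ± SD, n = 4). Keratin sums reach 309 FPKM in Eo+ replicate 5, claudin sums are lowest in the ESC libraries, and the ratio runs from 0.516 in Eo- to 1.46 in Eo+.

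Cldn6 was the most abundant of the 5 claudins in every group. It was at 44.0, 61.0, 61.0 and 65.1 CPM in ESC, 208, 216, 249 and 233 in Eo-, and 235, 132, 363 and 176 in Eo+. Every day 3 library was above every ESC library, and the Eo+ libraries lay on both sides of the Eo- ones. The level rose 3.97-fold in Eo- (log2 1.99 ± 0.25, adjusted p = 1.157e-05) and 3.70-fold in Eo+ (log2 1.89 ± 0.25, adjusted p = 1.04e-05). Between the fractions the difference was log2 -0.10 (95% interval -0.59 to 0.39, adjusted p = 0.7384). The locus is at chr17:23679236-23682474 on the plus strand.

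Cldn7, a claudin found along the sides as well as at the junctions of epithelial cells, was at 15.0, 29.7, 22.1 and 23.3 CPM in ESC, 91.5, 118, 124 and 117 in Eo-, and 74.1, 57.2, 125 and 65.6 in Eo+. It too was above every ESC library at day 3, by 5.12-fold in Eo- (log2 2.36 ± 0.24, adjusted p = 2.304e-06) and 3.52-fold in Eo+ (log2 1.82 ± 0.25, adjusted p = 1.482e-05). In Eo+ it was 1.45-fold below Eo- (log2 -0.54 ± 0.21, adjusted p = 0.04652), but Eo+ replicate 5 was above all Eo- libraries. That last call was lost with edgeR (log2 -0.48, adjusted p = 0.1065), with DESeq2 (log2 -0.48, adjusted p = 0.07867) and without any 1 of 8 libraries. Without Eo+ replicate 5 it was log2 -0.76 (adjusted p = 0.001879). Cldn7 lies at chr11:69964779-69967885 on the plus strand.

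Cldn4, a barrier claudin also known from the epithelium of the blastocyst, went the other way. It was at 45.2, 68.0, 38.3 and 49.7 CPM in ESC, 25.7, 28.1, 28.1 and 29.4 in Eo-, and 14.8, 6.75, 22.2 and 15.9 in Eo+. The 3 groups did not overlap. The fall was 1.77-fold in Eo- (log2 -0.82 ± 0.23, adjusted p = 0.006872), 3.62-fold in Eo+ (log2 -1.86 ± 0.27, adjusted p = 2.419e-05), and 2.05-fold from Eo- to Eo+ (log2 -1.04 ± 0.28, adjusted p = 0.007253).

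Cldn3, a barrier claudin closely related to Cldn4, is its neighbour on chromosome 5, 33.7 kb away at chr5:134986214-134987472 on the plus strand, with Cldn4 at chr5:134945026-134952481 on the minus strand. Its pattern was another, with 2.14, 3.94, 2.03 and 3.99 CPM in ESC, 9.0, 14.2, 14.4 and 10.3 in Eo-, and 2.45, 1.63, 6.84 and 1.63 in Eo+. Eo- stood above both other groups, which overlapped. It was 4.09-fold above ESC (log2 2.03 ± 0.35, adjusted p = 0.0002191), and Eo+ was 4.51-fold below Eo- (log2 -2.17 ± 0.36, adjusted p = 0.0002664). Eo+ against ESC gave log2 -0.14 (95% interval -1.04 to 0.76, adjusted p = 0.7745), and without Eo+ replicate 5 it gave log2 -0.59.

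Cldn5, the claudin of endothelial junctions, was the scarcest of the 5 in each group. It was at 1.18, 1.07, 1.25 and 1.03 CPM in ESC, 5.72, 4.35, 2.25 and 2.69 in Eo-, and 0.860, 0.211, 0.561 and 0.308 in Eo+, which are 163 to 675 counts and well over the floor. The groups did not overlap. The level rose 3.12-fold in Eo- (log2 1.64 ± 0.34, adjusted p = 0.0009741) and was 2.67-fold lower in Eo+ than in ESC (log2 -1.42 ± 0.44, adjusted p = 0.009796). The 8.32-fold difference between the fractions (log2 -3.06 ± 0.40, adjusted p = 4.303e-05) was the widest of any of the 9 genes in any comparison. Cldn5 has its place at chr16:18776847-18778268 on the plus strand.

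Endothelial markers moved with Cldn5 in part. Their list (Pecam1, Cdh5, Kdr, Tek, Tie1, Erg and Sox18 tested of 8) summed to 186, 55.9, 27.2 and 45.2 CPM in Eo- replicates 1, 2, 5 and 6, the same order as Cldn5, and 5 of 7 tested genes were higher and 1 lower in Eo- than in ESC. Of the 5, Cdh5 and Erg had a mean below 0.1 FPKM in ESC and were tested only through their day 3 level, so neither this count nor that for Eo+ is evidence by itself. In Eo+ the sum was higher, at 352.5, 174, 81.7 and 277 CPM, where Cldn5 was lowest, and 4 of 7 were higher and 1 lower than in ESC. Most of that sum was Kdr, which early mesoderm also carries, at 198 ± 99.9 CPM in Eo+ and 22.8 ± 19.9 in Eo-. Tie1 was at 10.3 ± 12.03 CPM in Eo- and 2.15 ± 3.03 in Eo+, and Cdh5 at 13.8 ± 17.2 and 6.15 ± 7.36. The part of these cells in the Cldn5 values was not tested.

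The RNA of these 5 claudins thus changed in make-up as well as in amount. The 5 claudins summed to 73.5 ± 12.9 FPKM in ESC, 219 ± 18.4 in Eo- and 187 ± 80.5 in Eo+. Cldn6 made up 47.5% ± 5.12 of the sum in ESC, 62.1% ± 1.84 in Eo- and 72.2% ± 2.10 in Eo+. Cldn4 gave 32.6% ± 5.15 in ESC but 6.07% ± 0.322 and 3.81% ± 0.942 in the fractions. Cldn7 held 15.6% ± 1.76, 26.3% ± 1.58 and 22.6% ± 2.47, Cldn3 3.21% ± 0.733, 4.3% ± 0.775 and 1.22% ± 0.416, and Cldn5 1.12% ± 0.273, 1.24% ± 0.630 and 0.182% ± 0.0924. Among these 5, ESC thus held mainly Cldn6 and Cldn4, and both day 3 fractions mainly Cldn6 and Cldn7. Claudins outside the 5 are not in these sums. Cldn25 was at 11.3, 14.1 and 26.6 FPKM in ESC, Eo- and Eo+, and Cldn12 at 8.99, 11.4 and 14.8.

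Set against each other per length of the assembled loci, the 9 genes took a different order in each group. In ESC the order was Krt8 at 45.0 ± 26.8 FPKM, Cldn6 at 34.7 ± 5.64, Krt18 at 31.2 ± 17.7, Krt19 at 24.8 ± 12.6, Cldn4 at 24.0 ± 6.08, Cldn7 at 11.6 ± 3.09, Cldn3 at 2.40 ± 0.864, Cldn5 at 0.796 ± 0.0682 and Krt7 at 0.326 ± 0.0883. The first 5 overlapped in their library ranges, and Cldn7 overlapped Krt19. Within each of the 4 ESC libraries, though, Krt8 was above Krt18 and Krt18 above Krt19, and Cldn6 was above Cldn4. In Eo- the order was Cldn6 at 136 ± 10.95, Cldn7 at 57.8 ± 7.41, Krt18 at 40.3 ± 1.73, Krt8 at 32.1 ± 4.84, Krt19 at 15.4 ± 4.32, Cldn4 at 13.3 ± 0.735, Cldn3 at 9.50 ± 2.17, Cldn5 at 2.64 ± 1.12 and Krt7 at 0.519 ± 0.0932, where only Krt19 and Cldn4, and Krt19 and Cldn3, overlapped. In Eo+ it was Cldn6 at 136 ± 60.3, Krt8 at 116 ± 29.5, Krt18 at 84.6 ± 35.2, Cldn7 at 41.4 ± 15.7, Krt19 at 21.03 ± 8.69, Cldn4 at 7.11 ± 3.03, Cldn3 at 2.49 ± 1.99, Krt7 at 1.35 ± 0.533 and Cldn5 at 0.341 ± 0.204. There neighbours overlapped, except Krt19 with Cldn4 and Krt7 with Cldn5. The upper places of these orders changed with exon lengths of GENCODE M21, which are shorter for Krt8 and Krt18 and were tried after seeing the data. In ESC the first 5 were then Krt8 at 76.6 FPKM, Krt18 at 59.2, Cldn6 at 33.6, Cldn4 at 27.7 and Krt19 at 25.2, and Cldn6 was below Cldn4 in replicate 2. In Eo- Cldn6 stayed first at 132, followed by Krt18 at 76.3, Cldn7 at 57.8 and Krt8 at 54.7, and the ranges of Cldn7 and Krt8 overlapped. In Eo+ Krt8 at 198 and Krt18 at 160 came before Cldn6 at 131, and the ranges of Krt19 and Cldn4 overlapped while those of Cldn6 and Cldn7 did not.

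**Figure D3:**
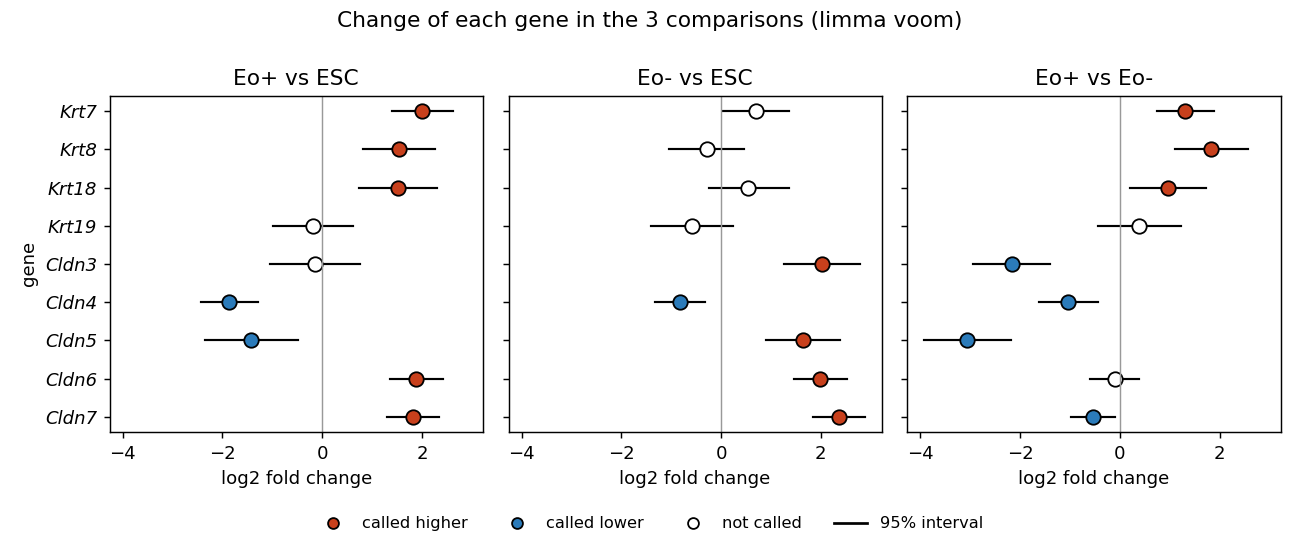
Log2 fold change of each gene in the 3 comparisons with its 95% interval (limma-voom, 12 libraries); coloured points passed the threshold (adjusted p no higher than 0.05). Krt7, Krt8 and Krt18 are called higher in Eo+ against both other groups, Cldn6 and Cldn7 in both fractions against ESC, and Krt19 nowhere.

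Within Eo+ the same libraries were high or low for nearly all 9 genes. Replicate 2 was the lowest Eo+ library for 9 of 9 genes and replicate 5 the highest for 8 of 9, the exception being Cldn5, highest in replicate 1. In Eo- and ESC no library held such a place: the most was 6 of 9, with Eo- replicate 1 lowest and ESC replicate 2 highest for 6 genes each. Highest over lowest Eo+ library was 1.90 for Krt8, 2.19 for Cldn7, 2.43 for Krt7, 2.76 for Cldn6, 2.81 for Krt19, 2.83 for Krt18, 3.30 for Cldn4, 4.08 for Cldn5 and 4.2 for Cldn3.

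Several lists varied between those Eo+ libraries. Epithelial adhesion genes and their regulators summed to 1054, 1023, 1587 and 1043 CPM in Eo+ replicates 1, 2, 5 and 6, lowest in replicate 2 and highest in replicate 5 as for most of the 9 genes. Tight junction partners (775.3 in replicate 2, 893.6 in replicate 5) and desmosome genes (468.3 and 593.2) had the same lowest and highest library. The list of repressors of epithelial genes and mesenchymal partners ran the other way, at 363.7, 499.7, 279.6 and 478.2 CPM. Much of that sum was Cdh2, a cadherin and not itself a repressor, at a mean of 208 CPM in Eo+ beside 405 for the list. Mesendoderm markers were at 1716, 2969, 1801 and 2555 CPM, highest in replicate 2. Markers of endoderm, which is also epithelial, varied as well. The visceral endoderm list (9 of 9 tested, Ttr to Hnf4a) summed to 106, 12.4, 60.3 and 27.2 CPM in Eo+ replicates 1, 2, 5 and 6, with replicate 2 lowest again, and to 6.45 to 18.9 in Eo- and 5.69 to 10.8 in ESC. Of its genes 7 were higher and 1 lower in Eo+ than in ESC, but Afp, Apob, Apoa4 and Ttr had a mean of at most 0.1 FPKM in ESC and were tested only through their day 3 level, so that count is no evidence by itself. The definitive endoderm list (Sox17, Foxa2, Foxa1, Cxcr4, Cer1, Hhex) summed to 486, 527.5, 736 and 495 CPM in the same 4 libraries, highest in replicate 5, to 38.4 to 65.1 in Eo- and 10.5 to 18.2 in ESC, with all 6 genes higher in Eo+ than in Eo-. The trophectoderm list was at 169.8, 73.1, 48.1 and 124 CPM in Eo+ and 23.1 to 86.3 in Eo-, with Hand1, which is also a mesoderm gene, among the 3 of 7 tested genes higher in Eo+ than in Eo-. Another 2 of the 7, Tfap2a and Ascl2, were lower (log2 -1.05 and -1.49), and Cdx2 was at 6.87 ± 3.51 CPM in Eo+ against 16.9 ± 12.5 in Eo-. The part of any of these cells in the keratin and claudin values was not tested.

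Promoter sequence was read for the pair of neighbouring keratins that rose together and for the most abundant claudins with opposite courses. RefSeq promoters of GRCm38.p6 (250 bases before to 50 bases after the start) were matched for 8 of 9 genes, with 9 promoters in all. The windows were searched on both strands for CACCTG, the E-box bound by Snail and Zeb repressors, GGGCGG, the Sp1 box, TATAAA, the TATA box, AACCGGTT, a grainyhead-like site, and TCACACCT, a T-box site bound by factors such as Eomes. Below, capitals mark every match to the first 3 motifs on either strand, and positions are counted from the start site. The Krt8 window is chr15:102004293-102004592 on the minus strand, the Krt18 window chr15:102027966-102028265 on the plus strand, the Cldn4 window chr5:134946885-134947184 on the minus strand and the Cldn6 window chr17:23679115-23679414 on the plus strand.
Krt8 promoter: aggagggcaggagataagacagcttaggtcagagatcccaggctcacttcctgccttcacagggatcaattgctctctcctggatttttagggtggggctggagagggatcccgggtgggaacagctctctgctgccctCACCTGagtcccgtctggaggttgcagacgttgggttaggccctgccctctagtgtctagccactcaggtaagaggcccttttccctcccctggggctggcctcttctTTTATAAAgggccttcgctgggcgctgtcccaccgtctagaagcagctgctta
Krt18 promoter: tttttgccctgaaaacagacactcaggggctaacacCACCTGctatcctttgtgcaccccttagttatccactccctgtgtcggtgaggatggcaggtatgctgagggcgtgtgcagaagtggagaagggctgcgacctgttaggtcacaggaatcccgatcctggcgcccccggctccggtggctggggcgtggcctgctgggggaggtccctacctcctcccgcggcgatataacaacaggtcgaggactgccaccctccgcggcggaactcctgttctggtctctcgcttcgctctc
Cldn4 promoter: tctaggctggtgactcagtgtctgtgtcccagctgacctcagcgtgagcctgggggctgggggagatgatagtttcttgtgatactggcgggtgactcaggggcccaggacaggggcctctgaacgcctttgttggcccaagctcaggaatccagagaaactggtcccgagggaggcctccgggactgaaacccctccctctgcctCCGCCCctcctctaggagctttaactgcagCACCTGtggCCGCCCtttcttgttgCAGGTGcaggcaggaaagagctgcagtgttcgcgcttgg
Cldn6 promoter: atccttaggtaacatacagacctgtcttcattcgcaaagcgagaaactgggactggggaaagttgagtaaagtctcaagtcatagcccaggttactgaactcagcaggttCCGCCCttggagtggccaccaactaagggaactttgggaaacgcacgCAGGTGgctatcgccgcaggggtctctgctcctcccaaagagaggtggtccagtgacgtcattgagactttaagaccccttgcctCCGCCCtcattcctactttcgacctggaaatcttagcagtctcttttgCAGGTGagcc

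CACCTG stood once in Krt8 (-111) and once in Krt18 (-214), at -14 and 12 in Cldn4 and at -93 and 41 in Cldn6. Among the other windows it stood in Krt7 (-44), Cldn3 (32) and 1 of the 2 Cldn7 promoters (-97 and -57), and not in Cldn5. Of all 32851 RefSeq promoters searched, 20.2% held it. It was thus found in genes that rose and in genes that fell. The Krt8 window alone held TATAAA, with overlapping matches on the 2 strands at -3 and -1, a motif of 13.6% of all promoters. GGGCGG, in 35.7% of all promoters, was matched in Krt7, Cldn3, Cldn4, Cldn5, Cldn6 and the same Cldn7 promoter. No window held AACCGGTT (0.146% of all promoters) or TCACACCT (1.28%). A match is a run of letters only, and no binding was measured here.

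Genes for repressors that bind the E-box were called too. Snai1, the Snail repressor of Cdh1 and of claudins, was at 9.18 ± 3.17 CPM in ESC, 13.4 ± 3.55 in Eo- and 105 ± 56.7 in Eo+ (Eo+ against Eo-, log2 2.82 ± 0.43, adjusted p = 0.0001295). Zeb2, a repressor of the same class whose locus also held Mir5129, was at 4.52 ± 1.45, 6.76 ± 2.52 and 21.4 ± 6.30 CPM (log2 1.67 ± 0.28, adjusted p = 0.0002862). Across the list of repressors and mesenchymal partners 7 of 8 tested genes were higher and 0 lower in Eo+ than in Eo-, beside 23.0% and 24.6% of all loci. The remaining gene was Snai2 (log2 0.29, adjusted p = 0.5999). None was lower at an unadjusted p under 0.05 or by edgeR or DESeq2 (0 each). Against ESC 5 were higher and 1 lower in Eo+. The largest rise there was that of Cdh2, the cadherin of mesenchymal and neural cells and not itself a repressor, from 18.9 ± 9.23 to 208 ± 41.3 CPM, and the single fall that of Snai2 (log2 -1.25 ± 0.39). In Eo- against ESC 1 was higher and 3 lower, and the 1 became 0 with edgeR, with all loci that have a position and without ESC replicate 2 or 6 or Eo- replicate 1, 2 or 6, and 2 with the replicate block over all libraries. The median log2 change of the list was 1.65 between the fractions, beside -0.01 over all loci.

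Epithelial adhesion genes and their regulators were mostly higher in Eo- than in Eo+. Of 20 tested, 13 were lower and 2 higher in Eo+ than in Eo-, beside 24.6% and 23.0% of all loci, with a median log2 change of -0.54. Replicate 5 stood apart in Eo+: the list summed to 1587 CPM there against 1023 to 1054 in the other 3, and to 1612 to 1774 in Eo-. Without it 14 were lower and 1 higher. The 2 became 1 with edgeR, with DESeq2, at 1 CPM or more in 4 libraries and without ESC replicate 1 or 5, Eo- replicate 1 or Eo+ replicate 2, 5 or 6, and 0 without Eo- replicate 5. Cdh1, the E-cadherin of adherens junctions, was at 347 ± 26.4 CPM in ESC, 569 ± 31.4 in Eo- and 307 ± 109 in Eo+ (273.1, 238.1, 469.4 and 248.9 in replicates 1, 2, 5 and 6), 0.95 ± 0.16 lower on the log2 scale in Eo+ than in Eo- (adjusted p = 0.0003063) and not called between Eo+ and ESC (adjusted p = 0.2234). Grhl2, a grainyhead-like activator of Cdh1 and claudin genes, was at 34.9 ± 5.65, 36.2 ± 2.42 and 11 ± 2.76 CPM, so Krt8 and Krt18 were highest where it was lowest. Rab25, a GTPase of epithelial membrane recycling, rose most of the list in Eo+ against ESC (log2 2.08 ± 0.21, adjusted p = 9.108e-07), and Grhl1 fell most (log2 -3.28 ± 0.22, adjusted p = 2.056e-08). In Eo- against ESC 10 of 20 were higher and 4 lower, and in Eo+ against ESC 6 were higher and 8 lower.

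Among the partners of claudins at the tight junction 14 of 18 tested genes were higher and 3 lower in Eo- than in ESC, beside 30.9% and 31.3% of all loci. In Eo+ against ESC 12 were higher and 4 lower, beside 35.8% and 36.1%. Ocln (occludin) was at 5.09 ± 0.471 CPM in ESC, 16.0 ± 1.82 in Eo- and 10.4 ± 4.52 in Eo+, higher in both fractions and 0.70 ± 0.20 lower on the log2 scale in Eo+ than in Eo- (adjusted p = 0.01215). Tjp1, the scaffold ZO-1, differed less, at 84.0 ± 5.54, 107 ± 18.4 and 116 ± 14.4 CPM. Inadl, a polarity scaffold, had the largest rise in Eo+ against ESC (log2 1.79 ± 0.11, adjusted p = 7.906e-09). Jam2, a junctional adhesion molecule, fell most, from 109 ± 16.1 CPM in ESC to 5.42 ± 1.64 in Eo- and 1.22 ± 0.132 in Eo+. Between the fractions 4 were higher and 7 lower in Eo+, beside 23.0% and 24.6% of all loci. The list medians were 0.58, 0.46 and -0.15 for Eo- against ESC, Eo+ against ESC and Eo+ against Eo-.

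**Figure D4:**
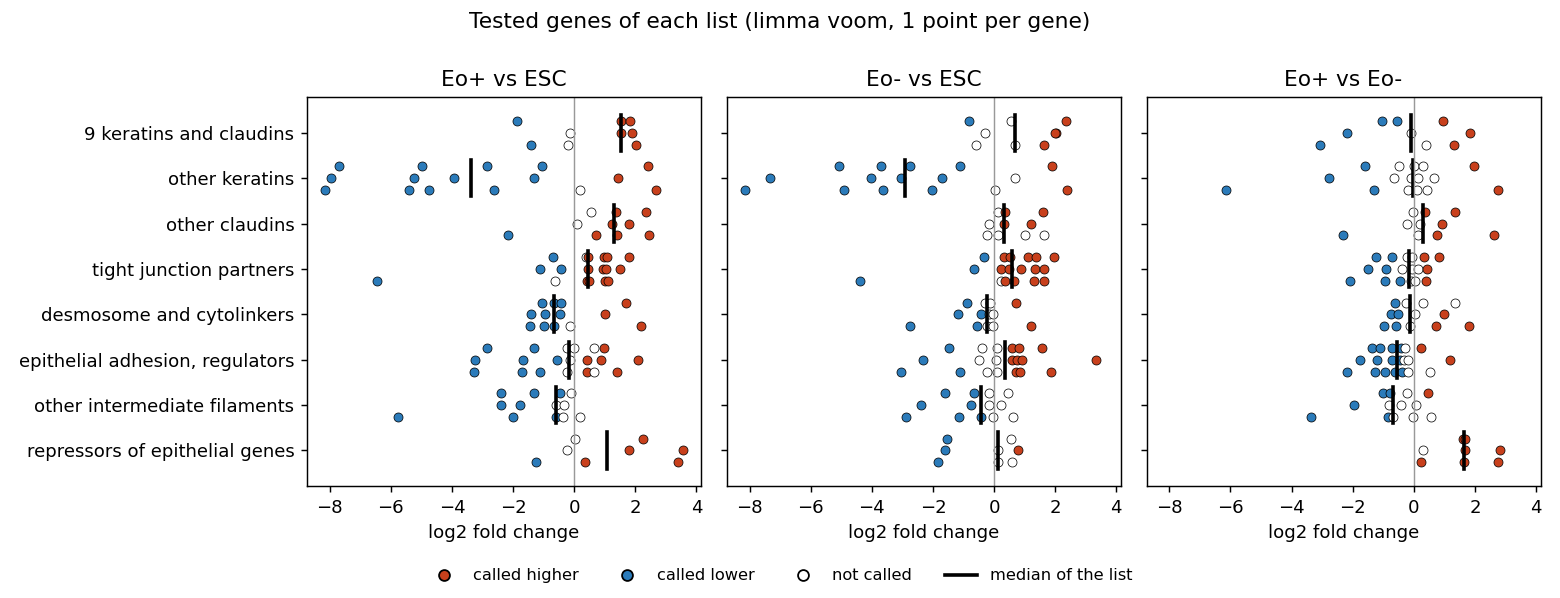
Log2 fold change of every tested gene of each list in the 3 comparisons (1 point per gene, colour by call, black bar the list median; vertical offsets only separate points). The repressor list sits to the right in Eo+ against Eo-, with a median of 1.65, and the epithelial list to the left with -0.54.

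Desmosomes anchor keratin filaments at the membrane, and their genes did not move as one. Dsp, desmoplakin, which ties the filament to the desmosome, was at 24.2, 38.7, 38.2 and 17.6 CPM in ESC, 38.7, 22.5, 17.9 and 29.1 in Eo-, and 110.0, 79.3, 89.4 and 92.4 in Eo+. All Eo+ libraries were above the other 8 (log2 1.70 ± 0.24 against ESC, adjusted p = 1.967e-05, and 1.82 ± 0.24 against Eo-, adjusted p = 4.291e-05). Dsc2, a desmosomal cadherin, had the largest rise against ESC (log2 2.18 ± 0.31), whereas Jup, plakoglobin, fell most (log2 -1.45 ± 0.15). Of 13 tested genes 3 were higher and 9 lower in Eo+ than in ESC, 2 and 5 in Eo- than in ESC, and 3 and 5 in Eo+ than in Eo-. Over all loci these shares were 35.8% and 36.1%, 30.9% and 31.3%, and 23.0% and 24.6%. Pkp1, among those lower than ESC in both fractions, was tested only through its ESC level. The 5 lower in Eo- became 8 with DESeq2 size factors and with all loci that have a position. With the differentiation set as a block within the 2 fractions 5 were higher in Eo+ than in Eo-. The list medians were -0.66, -0.22 and -0.12 in these comparisons.

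Other intermediate filament genes were called lower or not at all in Eo+ against ESC, at 8 lower and 0 higher of 13 tested by limma-voom, with the 5 others not called (higher at an unadjusted p under 0.05, and by edgeR or DESeq2, also 0). Nefh, a neurofilament, fell most, from 45.1 ± 2.46 CPM in ESC to 8.79 ± 1.35 in Eo- and 0.975 ± 0.684 in Eo+. Vim, the vimentin of mesenchymal cells, was at 474 ± 186 CPM in ESC, 209 ± 66.0 in Eo- and 308 ± 84.6 in Eo+, and was not called between the fractions (log2 0.57 ± 0.28, adjusted p = 0.1092). The feeder fibroblast list summed to means of 153.5, 31.1 and 22.5 CPM in ESC, Eo- and Eo+. The part of feeder cells in the Vim values was not tested. In Eo- against ESC 7 were lower and 0 higher by limma-voom, with 0 higher also by edgeR and by DESeq2 and 1 at an unadjusted p under 0.05. That 0 became 1 with library totals, without the filter, with the replicate block over all libraries and without Eo- replicate 1 or Eo+ replicate 1, and 3 without ESC replicate 5. Between the fractions 1 was higher and 5 lower, and with the block 2 and 8. That 1 became 2 without Eo- replicate 1 and 0 without Eo- replicate 5 or 6 or Eo+ replicate 1 or 6. The medians were -0.61 for Eo+ against ESC, -0.43 for Eo- against ESC and -0.68 between the fractions.

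The remaining keratins took another course. Of 47 others 16 passed the filter, and 12 of these were lower and 3 higher in Eo+ than in ESC, 12 and 2 in Eo- than in ESC, and 4 and 2 in Eo+ than in Eo-. Of the 12 lower than ESC, 8 in each fraction were tested only through their ESC level, so those counts are no evidence by themselves. Krt1 and Krt80, higher than ESC in both fractions, had a mean of at most 0.1 FPKM in ESC and were tested only through their day 3 level. The counts of higher genes against ESC are therefore no evidence by themselves either. Krt42, a type I keratin, was at 22.2 ± 5.11 CPM in ESC, 0.755 ± 0.248 in Eo- and 0.112 ± 0.0384 in Eo+, and Krt222 rose from 1.07 ± 0.201 to 7.08 ± 2.73 CPM in Eo+ (log2 2.67 ± 0.27, adjusted p = 1.018e-06). The basal keratins of stratified skin were scarce, with Krt14 at 0.619 ± 0.156 CPM in ESC and 0.0155 ± 0.00438 in Eo+, and Krt5 at 0.136 ± 0.0387 and 0.00799 ± 0.00689.

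Of 20 other claudins 10 were tested, and 7 were higher and 1 lower in Eo+ than in ESC, 4 and 0 in Eo- than in ESC by limma-voom (0 lower also by edgeR, by DESeq2 and at an unadjusted p under 0.05), and 5 and 1 in Eo+ than in Eo-. The 0 became 3 without the filter on low values. Of the 7, Cldn10, Cldn11, Cldn20 and Cldn23 had a mean below 0.1 FPKM in ESC and were tested only through their day 3 level, so neither that count nor the list median is evidence by itself. Cldn10 and Cldn23 were also among the 4 higher in Eo-, and Cldn20, among the 5, was tested only through Eo+. Those 2 counts are no evidence by themselves either. Cldn26 rose most in Eo+ among those of at least 1 CPM, from 0.394 ± 0.0997 to 2.33 ± 1.19 CPM. The list medians were 1.31, 0.34 and 0.29. The gene that was lower is Cldn1, at 0.903 ± 0.0633 CPM in ESC, 1.01 ± 0.197 in Eo- and 0.228 ± 0.140 in Eo+, which was named after its values were seen. Cldn9, a close relative of Cldn6, was at 1.06 ± 0.0799, 0.907 ± 0.0692 and 1.68 ± 0.776 CPM. The locus with Cldn15 also held Fis1, and its 79.6 ± 7.21 CPM in ESC cannot be given to either gene.

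The genes closest in pattern over the 12 libraries were sought among all tested protein-coding loci, by the root mean square difference of centred log2 CPM. For Krt8 the nearest were Dsp (0.34), Cited1 (0.38) and Wnt11 (0.39), and for Krt18 they were Rnf128 (0.37), 4732456N10Rik (0.38) and Chst15 (0.39). Cldn6 had closer company, in Sel1l3 (0.13), Cmtm8 (0.23) and Fam213a (0.25). Cldn7 was nearest to Sel1l3 (0.21), Gatsl2 (0.22) and Cmtm8 (0.22), so that Sel1l3 and Cmtm8 were near both claudins. All these values share the same libraries and 3 groups.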

How the data were processed

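Poly(A) RNA of 12 libraries was read as stranded 100-base pairs. Per the methods and the submitters' processing notes, the authors mapped reads to mm10 (GRCm38) with STAR (2.0.4 in the notes; the version is given differently in the methods), assembled and merged transcripts with Cufflinks 2.2.1 on the Ensembl annotation and counted unique reads per locus and strand with HTSeq 0.6.1. The deposited raw counts per locus were used as they stand. The deposited CPM table, scaled by the authors with edgeR, was not used. Rows of the counter that name no gene stayed out of library sizes: reads outside any locus were 2.652 to 3.595% and reads mapping to several places 22.39 to 26.17% of the total. 0 columns belonged to other samples.

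Loci were kept with a mean FPKM above 0.1 in at least 1 group and as protein-coding, annotated lncRNA or non-annotated lncRNA (14216, 993 and 2713; 17922 in all). They were fitted with limma 3.58.1 (voom) on TMM factors of edgeR 4.0.16 (R 4.3.3, Python 3.11.15) with 1 mean per group over all 12 libraries, and called at a Benjamini-Hochberg adjusted p of at most 0.05 over all tested loci, two-sided, with 13.48 degrees of freedom. CPM is the count over the TMM-scaled library size and FPKM divides it by summed exon length. CPM and FPKM ± is the SD over 4 libraries, log2 ± the SE. Precision of single values is set by the spread of 4 libraries, since depth was high. The scripts were tested on simulated counts. Alternatives were library totals, DESeq2 1.42.0 size factors and its Wald test, edgeR's quasi-likelihood test, other filters, a replicate block, the 2 groups alone, and each library left out.

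The 9 genes and the gene and marker lists were chosen with earlier results of these data known. The text names all 9, the largest called rise and fall of each list in Eo+ against ESC at a mean of at least 1 CPM, and list genes whose role is needed (Eomes, Ocln, Tjp1, Cdh1, Grhl2, Dsp, Vim, Snai1, Zeb2 and the markers). Krt1, Krt17, Krt80, Cldn12 and Cldn25 were named after their values were seen. The neuroectoderm list (4 genes) was lower in all 3 comparisons, 4 of 4 genes each, but Pax6 and Sox1 were tested only through their ESC level and had to be lower than ESC. The feeder list had 7, 5 and 3 of 7 tested genes lower in Eo+ against ESC, Eo- against ESC and Eo+ against Eo-, of which Col3a1 and S100a4 were tested only through ESC. Libraries came from 4 differentiation sets per the methods. Deviations of same-numbered Eo+ and Eo- libraries correlated at 0.63, 0.31, 0.37 and 0.41, so the numbers pair the 2 fractions. Those of Eo+ and ESC gave -0.10 to 0.14 and those of Eo- and ESC -0.12 to 0.43. In Eo- against ESC, numbers 1 and 2 gave 0.25 and 0.43, above the highest value with another number (0.12 and 0.06). Numbers 5 and 6 gave -0.12 and -0.02, below it. These correlations therefore do not settle whether ESC is paired with the fractions. The planned permutation test of the keratin ratio is left out, since that ratio is a score over the chosen genes. Separate cultures are stated only as differentiation sets.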

Additional observations from a re-analysis of the deposited data

Results flagged for a closer look

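Cldn3 in Eo+ had 1 library far from the others: replicate 5 at 6.84 CPM stood over 1.63 to 2.45 CPM, a gap of 0.842 of the whole range. Chance sets 1 library apart in this way in about 1 in 20 groups of 4, and 27 groups of 4 were looked at. Replicate 5 was also the highest Eo+ library for 7 of the other 8 genes.

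The change from ESC differed between the 2 sorted fractions for 7 of the 9 genes, by the test of Eo+ against Eo-, in which the shared ESC libraries cancel and 23.0% of all tested loci were called higher and 24.6% lower. On the log2 scale the change was larger in Eo+ by 1.31 for Krt7, 1.83 for Krt8 and 0.96 for Krt18. It was smaller or more negative in Eo+ for the claudins, with -2.17 for Cldn3, -1.04 for Cldn4, -3.06 for Cldn5 and -0.54 for Cldn7. For Cldn5 the change from ESC was upward in Eo- and downward in Eo+, both called. The values for Krt18 and Cldn7 were the least secure of the 7.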

How the results depend on the processing

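The 27 tests of the 9 genes were repeated in 22 other fits, which gave 576 values. Of these 536 kept direction and side of the threshold, and 20 of the 27 tests did so throughout. Krt7 in Eo- against ESC gained a call with library totals (log2 0.77), edgeR (0.67), DESeq2 (0.62), no filter (0.76), the replicate block over all libraries (0.70) and the 2 groups alone (0.70), and gave 0.51 to 0.85 with 1 library left out, where it was called without ESC 2, Eo- 1, Eo+ 2 or Eo+ 5. Cldn7 in Eo+ against Eo- lost its call with edgeR (-0.48), DESeq2 (-0.48), no filter (-0.52), the 2 groups alone (-0.54) and all loci with a position (-0.48), and gave -0.76 to -0.39 with 1 library left out (adjusted p 0.001879 to 0.149). It was lost without ESC 5 or 6, Eo- 2, 5 or 6, or Eo+ 1, 2 or 6. Krt18 in Eo+ against Eo- gave 0.76 to 1.26 (adjusted p 0.007601 to 0.1019) with 1 library left out. Only uncalled values changed sign: Cldn3 in Eo+ against ESC with edgeR (0.05), and with 1 library left out Cldn3 (-0.59 to 0.10) and Krt19 (-0.42 to 0.09) in Eo+ against ESC, Krt8 in Eo- against ESC (-0.58 to 0.03) and Cldn6 in Eo+ against Eo- (-0.35 to 0.13). The replicate block within the 2 fractions, added after seeing the data, changed no call of the 9 genes and called 5173 loci higher and 5219 lower, against 4126 and 4417. Without the filter 9747 loci were lower in Eo+ than in ESC, against 6476, as more loci were tested. Other keratins were then lower in 22, 19 and 8 genes in Eo+ against ESC, Eo- against ESC and Eo+ against Eo-, against 12, 12 and 4, and at 1 CPM or more in 4 libraries in 2 each. Other claudins higher in Eo+ than in ESC were 3 at that stricter filter, against 7. Without the filter other claudins were lower in 4, 3 and 2 genes in Eo+ against ESC, Eo- against ESC and Eo+ against Eo-, against 1, 0 and 1. The keratin ratio in Eo- against ESC moved to -0.58 with GENCODE lengths, added after seeing the data, against -0.43. The cause of the other shifts was not tested. Depth is not the limit for any of the 9 genes, whose lowest count was 163.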
